A study of Drosophila melanogaster with 15 samples.

Results

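The Ku complex is a ring-shaped heterodimer that slides onto broken DNA ends, recruits the ligase of non-homologous end joining and also protects chromosome ends. In Drosophila its subunits are Irbp, the fly Ku70, and Ku80. Irbp18 is not a Ku subunit. It is a small basic leucine zipper protein of the C/EBP type that pairs with the transcription factor Xrp1, and it shares its name with Irbp because both were described as proteins that bind the inverted repeats of the P element.

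The 3 genes were found by their symbols among probe sets that carry exactly 1 gene symbol, and each was measured by 1 probe set, out of 11982 genes with such a probe set. They are Irbp (CG5247, probe set 1640431_at), Ku80 (CG18801, probe set 1625759_at) and Irbp18 (CG6272, probe set 1628683_at). Their mean levels over the 15 arrays lay at the 54.4, 59.8 and 78.7 percentile of all probe sets, in that order. Expression was measured on Affymetrix 3′ arrays in whole bodies of adult males of 3 days, with 25 flies pooled for each array. Control flies were measured untreated on 4 arrays and after 1000 Gy of ionizing radiation on 3 arrays. Flies that carry the tardigrade nucleosome-binding protein Dsup, or damage suppressor, were measured untreated on 4 arrays, 1 for each of 4 transgenic lines, and after 1000 Gy on 4 arrays of the same 4 lines. All flies were kept at 25 °C on cornmeal-molasses food with antibiotic. The control stock, the promoter or driver of Dsup and the time from irradiation to RNA isolation are named in none of the labels, so genetic background and transgene cannot be told apart.

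Levels below are log2 probe set levels after quantile normalization of all 15 arrays, and changes are differences between such levels. Calls were made with limma where the adjusted p was under 0.05. Levels of different probe sets are not on a shared scale, so only changes are set side by side. In whole bodies, fewer cells of a type and less RNA per cell cannot be told apart.

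The arrays differed in ways that bear on these genes. As deposited, the array means were 4.62 to 4.64 in untreated controls, 4.04 in untreated Dsup lines, 4.86 to 4.88 in irradiated controls and 4.49 to 4.50 in irradiated Dsup lines, and quantile normalization removes that offset only on average. Each pair of irradiated controls shared 6814 to 7744 identical deposited values out of 18952. Other pairs shared 209 or fewer. Even so, none of the 3 genes had an identical value in these arrays. Some other genes named below varied little among irradiated controls. Their SD there was 0.008 for mus81, 0.009 for Top3alpha, 0.014 for p53, mu2 and cnc, and 0.016 for RPA2. Others varied more, such as rad50 at 0.187. Where the spread is that small, the 3 arrays may count as fewer and p-values may be too low. The difference between 3′ and 5′ probe sets of the actin and GAPDH controls, a sign of shortened RNA, was 0.79 to 1.23 in untreated controls, 1.01 to 1.19 in untreated Dsup lines, 1.33 to 1.53 in irradiated controls and 1.24 to 1.45 in irradiated Dsup lines. The deposited level of an 18S rRNA control, less the array median, was 3.13 in untreated control 4 and 6.93 to 8.21 on the other arrays. Untreated control 4 was also the highest untreated control for Irbp and Ku80. The hybridisation spike-ins split the arrays into 2 classes, and line 1 was the sole Dsup line of its class in both treatments. The irradiated array of line 1 also stood apart by genotype markers. Each line was held out in turn and placed on a scale of its own, with controls at 0 and the other 3 Dsup lines at 1. Each scale was set by 50 probe sets that separate those other lines from controls in both treatments. The scales of lines 2 to 4 thus include line 1. On these scales the irradiated array of line 1 lay at 0.489, the other irradiated lines at 0.879 to 1.13 and the untreated lines at 0.717 to 1.11. Whether the array holds the sample its label names was not tested. The Dsup results of Irbp, Ku80 and Irbp18 are given with and without it, and for other genes it is said where leaving it out changes a call or moves a called value by more than 1.5 times.

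In untreated flies no difference between control and Dsup flies was called for the Ku genes or Irbp18. Irbp was at 4.16, 4.30, 3.94 and 4.43 in the 4 controls and at 3.73, 4.18, 4.14 and 4.16 in Dsup lines 1 to 4. Ku80 was at 4.58, 4.38, 4.40 and 4.98 in controls and at 4.44, 4.67, 4.65 and 4.71 in the lines. Irbp18 was at 6.13, 6.15, 6.33 and 6.07 in controls and at 6.48, 6.09, 6.23 and 6.43 in the lines. The groups overlapped for each gene. The differences, Dsup lines minus controls, were -0.16 ± 0.27 (SE) for Irbp, 0.04 ± 0.21 for Ku80 and 0.14 ± 0.17 for Irbp18, with adjusted p of 0.754, 0.937 and 0.648. Calls were made for 0 of the 3 genes, where 10.7% of all probe sets were. On the deposited values the same differences were -0.83, -0.64 and -0.53 and all 3 were called lower, as were 88.9% of all probe sets, whose median was -0.61.

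All 3 genes rose after radiation in control flies, Irbp and Ku80 to about 4 times and Irbp18 to over 2 times the untreated level. After 1000 Gy, Irbp stood at 6.25, 6.44 and 6.26 in the 3 controls, a mean of 6.32 ± 0.11 (SD, n = 3) against 4.21 ± 0.21 (SD, n = 4) before. Every irradiated control was above every untreated one. The change was 2.11 ± 0.29 (SE, 95% interval 1.49 to 2.73), or 4.32-fold, with an adjusted p of 8.29e-05. Ku80, the other subunit of the ring, stood at 6.46, 6.57 and 6.45, a mean of 6.49 ± 0.07 (SD, n = 3) against 4.59 ± 0.28 (SD, n = 4). Its groups did not overlap either. It rose by 1.91 ± 0.23 (SE, 95% interval 1.42 to 2.40), or 3.75-fold, with an adjusted p of 3.00e-05.

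Irbp18, the leucine zipper protein, also rose. It stood at 7.54, 7.68 and 7.40 in irradiated controls, a mean of 7.54 ± 0.14 (SD, n = 3) against 6.17 ± 0.11 (SD, n = 4) untreated, again without overlap. The change was 1.37 ± 0.18 (SE, 95% interval 0.98 to 1.76), or 2.59-fold, with an adjusted p of 6.36e-05. Among the 18769 probe sets tested, the changes ranked 81 for Irbp, 104 for Ku80 and 211 for Irbp18 from the top. All 3 genes were called higher, against 16.9% of all probe sets, and all 3 had groups that did not overlap in that direction, against 23.5%. A two-sided exact permutation test of each gene gave p = 0.0286, the smallest that 3 against 4 arrays allow.

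The control rise was smaller in a fit that held the RNA sign named above. That sign was higher on every irradiated array than on every untreated array of the same genotype. It therefore cannot be fully told apart from dose. Here and below, a fit with it may take out part of a radiation change. With the 3′ minus 5′ difference as a covariate, the control rise was 1.55 for Irbp, 1.33 for Ku80 and 1.06 for Irbp18, with adjusted p of 0.0447, 0.0263 and 0.0358. All 3 were still called higher, against 4.97% of all probe sets in that fit. Within each of the 2 spike-in classes the rise was 2.12 and 2.07 for Irbp, 2.03 and 1.75 for Ku80, and 1.47 and 1.20 for Irbp18. It was thus of similar size in both classes.

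**Figure D1:**
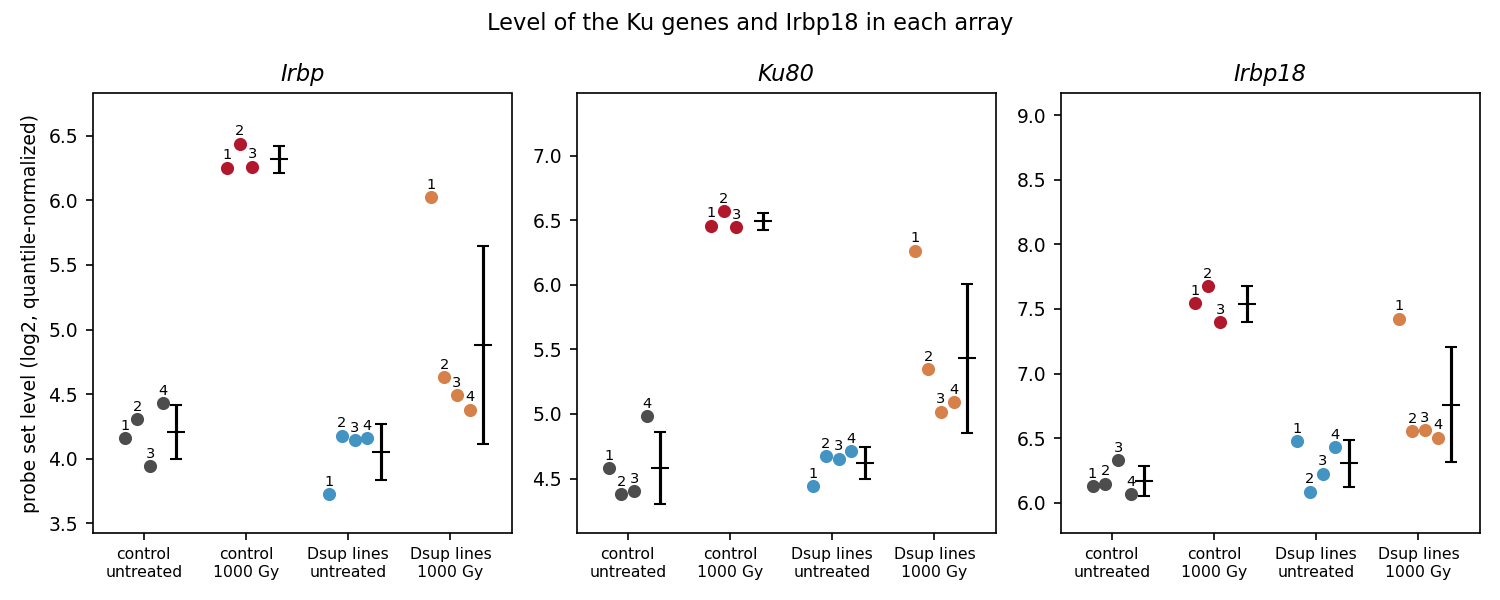
Log2 probe set level (vertical axis, quantile-normalized, separate scale per gene) of Irbp, Ku80 and Irbp18 on each of the 15 arrays, by genotype and dose; points are arrays numbered by replicate or Dsup line, and bars are the group mean ± SD. Irradiated controls form a tight high group, while line 1 is high and lines 2 to 4 are low among irradiated Dsup flies.

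In Dsup flies the response to the same dose was smaller on average and split by line. Irradiated Irbp stood at 6.02, 4.63, 4.49 and 4.38 in lines 1 to 4, a mean of 4.88 ± 0.77 (SD, n = 4) against 4.05 ± 0.22 before. Line 1 was near the irradiated controls, and lines 2 to 4 lay just above the untreated lines. Ku80 stood at 6.26, 5.35, 5.02 and 5.09, a mean of 5.43 ± 0.57 (SD, n = 4) against 4.62 ± 0.12, with the same line on top. Irbp18 stood at 7.42, 6.55, 6.56 and 6.50, a mean of 6.76 ± 0.44 (SD, n = 4) against 6.31 ± 0.18. For each gene all irradiated lines were above all untreated lines, as 10.7% of all probe sets were in that direction.

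The mean change in Dsup lines was 0.83 ± 0.27 (SE, 95% interval 0.26 to 1.40) for Irbp, or 1.78-fold, with an adjusted p of 0.0387. For Ku80 it was 0.81 ± 0.21 (SE, 95% interval 0.35 to 1.26), or 1.75-fold, with an adjusted p of 0.0145. Irbp18 changed by 0.45 ± 0.17 (SE, 95% interval 0.09 to 0.81), or 1.37-fold, and was not called at an adjusted p of 0.0674. Of the 3 genes 2 were therefore called higher, against 10.7% of all probe sets. The exact two-sided permutation p of each gene was 0.0286, the smallest possible with 4 against 4 arrays.

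These calls depended on the fit. The Irbp rise was not called without any 1 of the 4 untreated Dsup arrays or without the first irradiated control, at adjusted p of 0.0503 to 0.0923. With each line taken as a replicate block, the Irbp rise was no longer called (adjusted p = 0.0770), Ku80 still was (adjusted p = 0.0296), and Irbp18 came to be called (adjusted p = 0.0480). With the 3′ minus 5′ difference as a covariate, the changes were 0.57, 0.55 and 0.31, with adjusted p of 0.233, 0.130 and 0.318 for Irbp, Ku80 and Irbp18.

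Line by line, irradiated minus untreated, Irbp changed by 2.30, 0.45, 0.35 and 0.22 in lines 1 to 4. These are 109%, 21.4%, 16.7% and 10.5% of the control rise. Ku80 changed by 1.82, 0.67, 0.36 and 0.38, or 95.5%, 35.4%, 19.0% and 19.8% of the control rise. Irbp18 changed by 0.95, 0.47, 0.33 and 0.07, or 69.0%, 33.9%, 24.3% and 5.15%. For both Ku genes the difference between the arrays labelled line 1 was about as large as the control rise, and those of the other 3 lines were far smaller. The irradiated line 1 array lay at 0.489 on its genotype scale described above. Whether it holds the sample its label names was not tested. The mean over lines 2 to 4 was 0.34 ± 0.12 (SD, n = 3) for Irbp, 0.47 ± 0.18 for Ku80 and 0.29 ± 0.20 for Irbp18. Each value rests on a single pair of arrays, so a line's own response has no replicate.

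The remaining genes that rose at least 2-fold in control flies give the background to this split. These were 417 probe sets, without the 3 genes, with a median control rise of 1.37. Their median in lines 1 to 4 was 0.91, 0.65, 0.31 and 0.74, or 66.9%, 47.4%, 22.7% and 54.3% of that rise. At the median, line 1 thus stood less far above lines 2 and 4 than it did for Irbp and Ku80, and line 3 was lowest. In line 4 the 3 genes changed by 5.15% to 19.8% of their control rise, below the 54.3% of the median riser. No test was made of this difference.

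**Figure D2:**
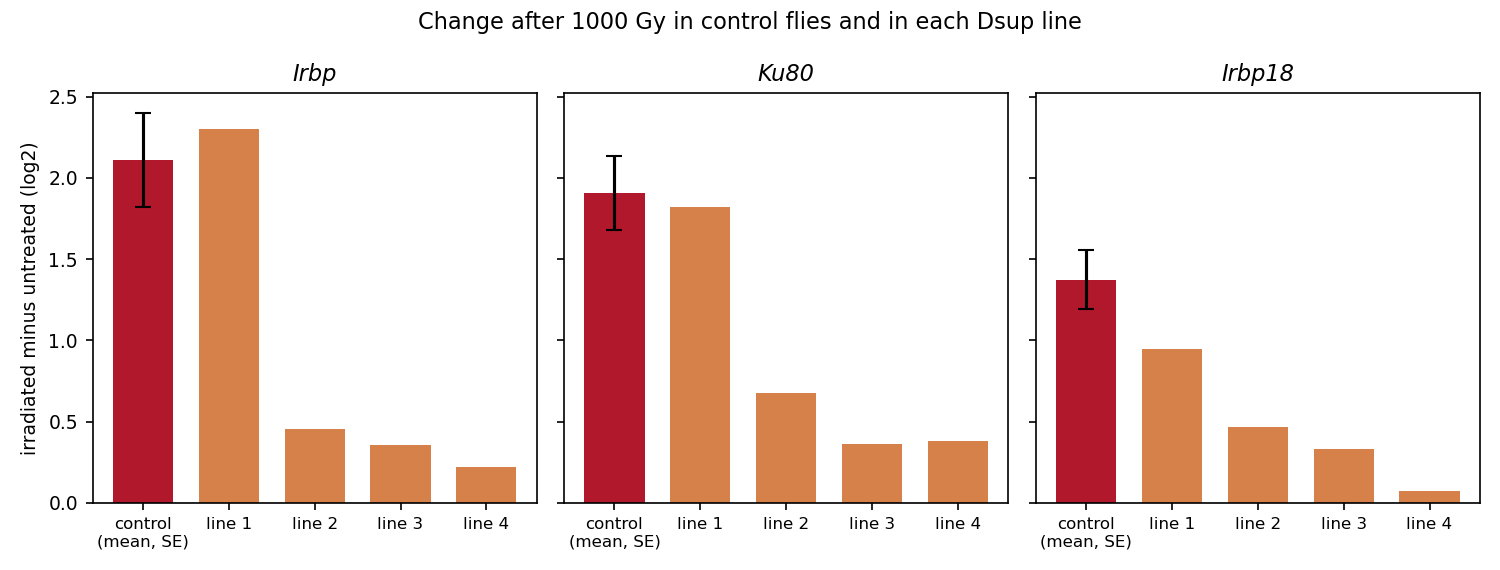
Irradiated minus untreated log2 level (vertical axis) for Irbp, Ku80 and Irbp18; the first bar is the control change ± SE, and the other bars are the Dsup lines, 1 pair of arrays each, with no error bar. Line 1 is near the control rise for Irbp and Ku80 (2.30 and 1.82), and lines 2 to 4 stay between 0.07 and 0.67.

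Without the irradiated array of line 1, the Dsup changes were 0.45 ± 0.13 (SE) for Irbp, 0.53 ± 0.13 for Ku80 and 0.23 ± 0.10 for Irbp18, with adjusted p of 0.0302, 0.0155 and 0.141. The same 2 genes were called higher, against 8.72% of all probe sets. The array therefore moved the Dsup rise by more than 1.5 times for each gene. With line 1 left out in both treatments the changes were 0.34, 0.47 and 0.29, and Ku80 alone was called, against 8.57% of all probe sets higher (adjusted p of 0.0611, 0.0359 and 0.0773 for Irbp, Ku80 and Irbp18).

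After 1000 Gy all 3 genes were lower in Dsup lines than in control flies. The difference, Dsup lines minus controls, was -1.44 ± 0.29 (SE) for Irbp, a 2.70-fold lower level, with an adjusted p of 0.00506. It was -1.06 ± 0.23 for Ku80, 2.09-fold lower, with an adjusted p of 0.00776. For Irbp18 it was -0.78 ± 0.18, 1.72-fold lower, with an adjusted p of 0.0119. All 3 were called lower, against 6.05% of all probe sets, and they ranked 25, 71 and 197 from the lowest.

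Irradiated levels of Irbp and of Ku80 did not overlap between genotypes, as was so for 17.8% of all probe sets in that direction. For Irbp18 they did, because line 1 at 7.42 was above the third control at 7.40. Exact two-sided permutation tests gave p = 0.0571 for Irbp, 0.0571 for Ku80 and 0.0857 for Irbp18, where the smallest possible was 0.0286. Without the second irradiated control the Irbp18 difference was -0.71 and not called (adjusted p = 0.0650). With the 3′ minus 5′ covariate all 3 differences were called, at -1.27, -0.90 and -0.69. In that fit 1612 of 18769 probe sets were called, 801 of them higher. Without the array of line 1 the differences were -1.82, -1.34 and -1.0, with adjusted p of 9.19e-06, 7.06e-05 and 9.70e-05, and 6.89% of all probe sets were called lower. Within the spike-in class of line 1, the differences were -0.32, -0.25 and -0.19 for Irbp, Ku80 and Irbp18. Within the other class, which held lines 2 to 4 and 1 irradiated control, they were -1.76, -1.29 and -0.86. In the Dsup flies spike-in class and line 1 cannot be told apart.

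Whether the radiation response itself differed between genotypes is asked by the interaction, the Dsup change minus the control change. It was -1.28 ± 0.39 (SE, 95% interval -2.12 to -0.44) for Irbp and missed the threshold with an adjusted p of 0.0568. It was -1.10 ± 0.31 (SE, 95% interval -1.77 to -0.43) for Ku80, called at an adjusted p of 0.0409. It was -0.92 ± 0.25 (SE, 95% interval -1.45 to -0.39) for Irbp18, called at an adjusted p of 0.0320. Of the 3 genes 2 had a smaller rise in Dsup lines by this test, against 4.77% of all probe sets.

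The interaction depended on single arrays. With the irradiated array of line 1 left out it was -1.66 for Irbp, -1.38 for Ku80 and -1.14 for Irbp18, all called, with adjusted p of 0.000221, 0.000819 and 0.000557, against 5.35% of all probe sets. Leaving out 1 of the 15 arrays at a time gave a call in 1 case for Irbp, in 3 for Ku80 and in 4 for Irbp18, and no case turned the sign. With the replicate block, adjusted p was 0.113 for Irbp, 0.0635 for Ku80 at -1.23, and 0.0467 for Irbp18. With the 3′ minus 5′ covariate none of the 3 was called, at adjusted p of 0.211, 0.176 and 0.136. Within the spike-in class of line 1 the interaction of Irbp was 0.18, and in the other class it was -1.73.

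**Figure D3:**
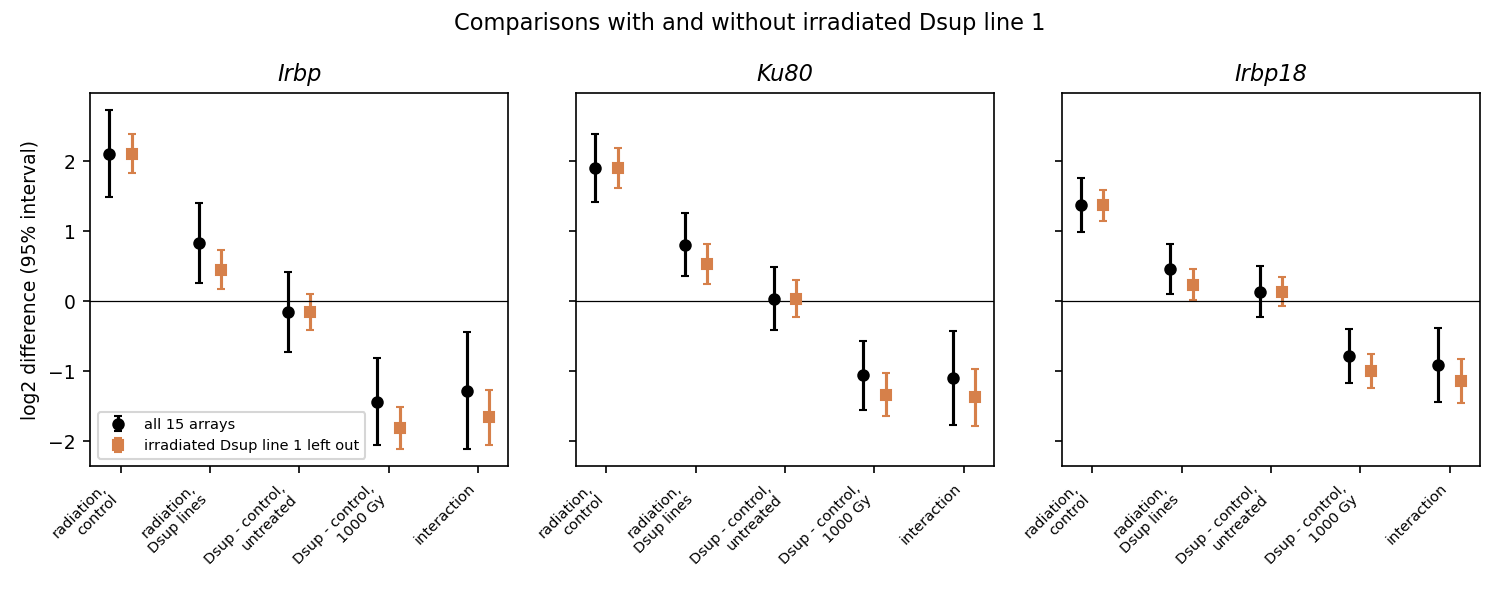
Log2 difference with its 95% interval (vertical axis) for Irbp, Ku80 and Irbp18 in each comparison, with all arrays (circles) and without the irradiated array of Dsup line 1 (squares). The control rise is the largest difference plotted for each gene with all arrays (2.11, 1.91 and 1.37), the untreated difference is near 0, and the irradiated difference and interaction are more negative without that array.

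Over the 15 arrays the Ku genes had profiles close to each other. Likeness was measured as the root mean square difference of log2 levels, each gene centred on its own mean, among 9352 genes, leaving out those under the 40th percentile of level. Nearest to Irbp was Ku80, at 0.209, followed by Mocs1, a molybdenum cofactor gene, at 0.275, the chromatin adaptor Ada2b at 0.308, CG15784 at 0.315 and CG13215 at 0.327. Nearest to Ku80 was Mocs1 at 0.175, then Irbp at 0.209, CG15784 at 0.224, the single-strand binding subunit RPA2 at 0.249 and Ada2b at 0.249. The measure uses the same arrays as the changes above. Levels were centred but not scaled, so genes whose changes are of like size lie nearer to each other.

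Irbp18 had other genes as its 5 nearest neighbours. Nearest to it was PEK, the eIF2alpha kinase of the endoplasmic reticulum, at 0.119, then the transcription coactivator mbf1 at 0.130, CG17294 at 0.168, Ifrd1 at 0.172 and CG31633 at 0.174. Irbp18 ranked 39 among the genes nearest to Irbp and 27 among those nearest to Ku80. Seen from Irbp18, Ku80 ranked 151 and Irbp 911. In control flies the neighbours listed for Irbp changed by 1.72 to 2.09 and those for Irbp18 by 1.18 to 1.39. The ranks therefore reflect in part the size of change, and a difference in pattern apart from size was not tested. Among irradiated Dsup lines, every neighbour listed for the 3 genes was higher in line 1 than the mean of lines 2 to 4, by 0.65 to 1.94.

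In the genome, the genes beside the 3 loci changed less. By RefSeq order (assembly Release 6 plus ISO1 MT), the 2 nearest genes on each side of Irbp are mgr, mRpL40, Ipo9 and bumpel, and their control changes were 0.42, 0.18, -0.14 and 0.69. Beside Ku80, wek changed by -0.38, CG3793 by 0.33 and CG31826 by -0.18. Beside Irbp18, APP-BP1 changed by -0.08 and Elo68beta by 0.33. Of these 9 neighbours with a value, mgr, bumpel, CG3793 and Elo68beta rose and wek fell in control flies, with adjusted p between 0.00176 and 0.0255. Of all probe sets 16.9% were called higher and 17.1% lower in that comparison. CG33947 overlaps Irbp18 in that annotation and had no value here.

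The other genes of end joining were divided. Of 9 listed genes 7 were measured, and 4 rose and 0 fell in control flies, against 16.9% and 17.1% of all probe sets, with a median change of 0.94 beside -0.01 for the median over all probe sets. Irbp and Ku80 are among the 4. The others were DNAlig4, the ligase of the pathway, at 0.94 (adjusted p = 0.000822), and XRCC1, a scaffold of single-strand break repair, at 0.99 (adjusted p = 6.47e-05). The probe set of XRCC1 had a low level, below the 40th percentile. PolQ, the polymerase of the alternative end-joining route, changed by 0.14 (adjusted p = 0.491). Without Irbp and Ku80, 2 of 5 rose and the median was 0.14.

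In Dsup lines 3 of the 7 end-joining genes rose, against 10.7% of all probe sets. They were Irbp, Ku80 and XRCC1, the last by 0.51 (adjusted p = 0.00847). DNAlig4 changed by 0.37 (adjusted p = 0.111). Its changes in lines 1 to 4 were 1.10, 0.12, 0.12 and 0.16, so line 1 was again the high line. Without its irradiated array the interaction of DNAlig4 was called, at -0.76 (adjusted p = 0.0108), and with all arrays it was -0.56 (adjusted p = 0.155). With the 3′ minus 5′ covariate the control change of DNAlig4 was 0.49 and not called (adjusted p = 0.231). In irradiated flies 4 of the 7, Irbp and Ku80 among them, were lower in Dsup lines than in controls, against 6.05% of all probe sets. The interaction was called negative for 1 of the 7, Ku80, against 4.77%.

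Resection and homologous recombination, the repair route that trims the ends Ku protects, had 15 of 20 listed genes measured. In control flies 5 rose and 2 fell, with a median of 0.14, against 16.9% higher and 17.1% lower of all probe sets. The risers included all 3 subunits of replication protein A, which coats single-stranded DNA. RPA2 rose by 2.12 (adjusted p = 4.31e-06), RpA-70 by 1.49 (adjusted p = 4.72e-05) and RPA3 by 1.07 (adjusted p = 4.43e-06). The other risers were subunits of the MRN complex that opens broken ends, nbs at 0.72 (adjusted p = 0.00349) and rad50 at 0.61 (adjusted p = 0.0452), while the nuclease subunit mre11 changed by 0.20 (adjusted p = 0.602). The fallers were the nuclease gene mus81, a low probe set, at -0.52 (adjusted p = 9.63e-05), and the topoisomerase gene Top3alpha at -0.49 (adjusted p = 0.0269). Adding the 3′ minus 5′ covariate left 3 risers and 1 faller, and nbs at 0.41 (adjusted p = 0.332), rad50 at 0.34 (adjusted p = 0.603) and Top3alpha at -0.77 (adjusted p = 0.0689) were no longer called.

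In Dsup lines 2 of these 15 rose and 1 fell, with a median of 0.13, against 10.7% and 10.6% of all probe sets. RPA2 rose by 1.08 (adjusted p = 0.00112) and RpA-70 by 0.57 (adjusted p = 0.0320), while Top3alpha fell by 0.54 (adjusted p = 0.0175). Without the irradiated array of line 1 the RpA-70 change was 0.39 and not called (adjusted p = 0.0905), so 1 of the 15 rose. The line pattern of the Ku genes was seen in values of nbs, with 1.01, 0.17, -0.17 and -0.02 in lines 1 to 4, and of rad50, with 1.22, 0.18, -0.01 and -0.51. Without the irradiated array of line 1 the interaction of nbs was called, at -0.66 (adjusted p = 0.00879). Line 1 was also highest for RPA2, with 1.92, 1.11, 0.50 and 0.77, and for RpA-70, with 1.25, 0.59, -0.16 and 0.61. RPA3 did not share the pattern, with 0.22, 0.49, 0.35 and -0.11. The interaction was called negative for RPA2 at -1.05, RpA-70 at -0.92 and RPA3 at -0.83, and positive for mus81 at 0.59, where 4.77% of all probe sets were called negative and 4.31% positive.

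**Figure D4:**
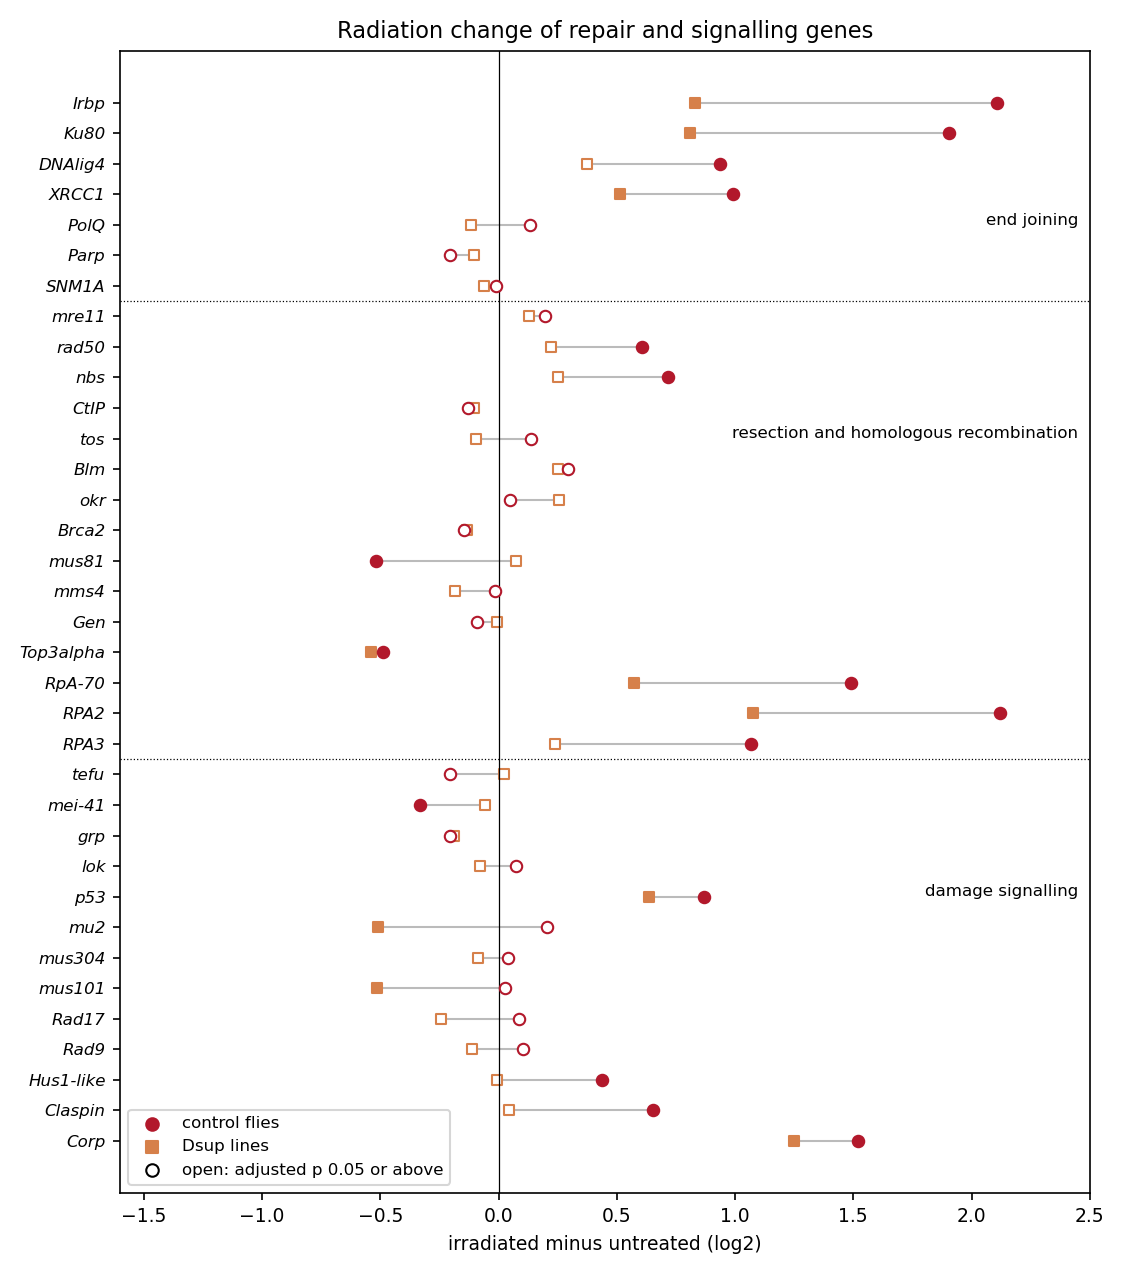
Irradiated minus untreated log2 change (horizontal axis) in control flies (circles) and Dsup lines (squares) for the measured genes of end joining, resection and homologous recombination, and damage signalling; open symbols did not pass the adjusted p threshold of 0.05. Irbp, Ku80 and RPA2 are the genes farthest to the right in control flies, at 2.11, 1.91 and 2.12, and their Dsup changes are smaller, at 0.83, 0.81 and 1.08.

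Damage signalling genes had 13 of 14 measured. In control flies 4 rose and 1 fell, with a median of 0.09, and in Dsup lines 2 rose and 2 fell, with a median of -0.08. Of all probe sets 16.9% rose and 17.1% fell in control flies, and 10.7% rose and 10.6% fell in Dsup lines. Corp, a target of p53, rose in both, by 1.52 (adjusted p = 8.52e-06) and 1.25 (adjusted p = 5.27e-05). Its line changes of 1.12, 1.32, 1.46 and 1.10 show no high line 1, unlike the Ku genes. The tumour suppressor p53 rose by 0.87 and 0.63, with 1.18, 0.88, 0.20 and 0.27 in lines 1 to 4, so line 1 was highest. Its second, low probe set changed by 0.47 in controls and by 0.03 in Dsup lines. In control flies the checkpoint adaptor Claspin, a low probe set, rose by 0.65 and the checkpoint clamp subunit Hus1-like by 0.44, while the ATR kinase gene mei-41 fell by 0.33. Under the 3′ minus 5′ covariate Corp alone of the 13 was called in control flies, and p53 was at 0.68 (adjusted p = 0.0607), Claspin at 0.58 (adjusted p = 0.0667), Hus1-like at 0.14 (adjusted p = 0.70) and mei-41 at -0.20 (adjusted p = 0.407). In Dsup lines mu2 and the TopBP1 gene mus101, the latter a low probe set, fell by 0.51 each. Before the dose mus101 was 0.71 higher in Dsup lines than in controls (adjusted p = 0.00302). Its mean in irradiated Dsup lines was 2.27, beside 2.08 in untreated and 2.11 in irradiated controls. The interaction was called, negative, for 2 of the 13, Claspin at -0.61 and mu2 at -0.71, against 4.77% of all probe sets.

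Telomere capping, the other role of Ku, had 4 of 8 listed genes measured. The cap protein gene HipHop rose by 0.85 (adjusted p = 0.000821) in controls and by 1.09 (adjusted p = 0.000172) in Dsup lines, with line changes of 0.92, 1.01, 1.08 and 1.34. It rose in line 1 no more than in the others. The HP1-binding cap gene cav fell by 0.40 (adjusted p = 0.00471) in controls, and changed by -0.23 in Dsup lines (adjusted p = 0.0735), where it was called without the irradiated array of line 1, at -0.30 (adjusted p = 0.0263). The other 2 measured genes were called in neither, and the medians were 0.04 and 0.06. Thus 1 of 4 rose and 1 fell in control flies, against 16.9% and 17.1% of all probe sets, and 1 rose in Dsup lines, against 10.7%. Neither was called in control flies once the 3′ minus 5′ covariate was added, HipHop at 0.74 (adjusted p = 0.0874) and cav at -0.43 (adjusted p = 0.0979).

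Among basic leucine zipper genes, the family of Irbp18, 16 of 19 were measured, and the partner Xrp1 was not analysed here. In control flies 4 rose and 5 fell, with a median of -0.08, against 16.9% and 17.1% of all probe sets. Beside Irbp18 the risers were vri, a clock repressor, at 1.0 (adjusted p = 0.0392), the Jun gene Jra at 0.81 (adjusted p = 0.000135) and the Fos gene kay at 0.79 (adjusted p = 0.00802). A second, low kay probe set changed by 0.25 and was not called (adjusted p = 0.0736). Those named that fell were REPTOR-BP, a partner of the nutrient-response factor REPTOR, by 0.83, Atf3 by 0.50, the small Maf gene maf-S by 0.38 and the Nrf2 gene cnc by 0.37, whose second, low probe set changed by -0.07. The family member crc, the fly ATF4, changed by -0.12 (adjusted p = 0.387). Irbp18, Jra and REPTOR-BP kept their calls with the 3′ minus 5′ covariate. Those lost were vri at 0.41 (adjusted p = 0.694), kay at 0.43 (adjusted p = 0.439), Atf3 at -0.30 (adjusted p = 0.411), maf-S at -0.55 (adjusted p = 0.0861) and cnc at -0.43 (adjusted p = 0.0637).

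In Dsup lines 1 of the 16, Jra, rose, by 0.89 (adjusted p = 9.64e-05), and 2 fell, with a median of -0.04, against 10.7% and 10.6% of all probe sets. Without the irradiated array of line 1, 1 of the 2 was still called lower. Irbp18 had the highest control change of the 16. The interaction was called in 2 of the 16, negative for Irbp18 and positive for REPTOR-BP at 0.81, against 4.77% and 4.31% of all probe sets. The vri changes in lines 1 to 4, 2.17, 0.41, 0.19 and 0.14, had the same high line as the Ku genes, and its mean Dsup change of 0.73 was not called (adjusted p = 0.124).

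In the integrated stress response, the pathway in which Xrp1 and crc act, 8 of 11 listed genes were measured. In controls 5 rose and 0 fell, with a median of 0.59, and in Dsup lines 3 rose and 0 fell, with a median of 0.34. Of all probe sets 16.9% rose in controls and 10.7% in Dsup lines. Irbp18 is among the 5. PEK rose by 1.39 (adjusted p = 3.20e-05) in controls and by 0.51 (adjusted p = 0.0300) in Dsup lines, and its interaction was -0.88 (adjusted p = 0.0282). Without the irradiated array of line 1 its Dsup change was 0.31 (adjusted p = 0.0494). Gadd45, a stress gene, rose by 2.14 and 1.61, with 2.82 in line 1 and 1.13 to 1.31 in lines 2 to 4. The eIF2alpha phosphatase subunit gene PPP1R15 rose by 0.40 and the pseudokinase gene trbl by 0.78 in control flies. Irbp18 and PEK kept their control calls with the 3′ minus 5′ covariate, while Gadd45 at 1.21 (adjusted p = 0.116), PPP1R15 at 0.36 (adjusted p = 0.156) and trbl at 0.50 (adjusted p = 0.449) did not. The peptide hormone gene Ilp8, a low probe set, rose by 0.48 in Dsup lines. In irradiated flies 4 of the 8 were lower in Dsup lines than in controls, against 6.05% of all probe sets, and Irbp18 and PEK passed the interaction test, against 4.77%. The interaction of the listed gene Gcn2 was -0.48 and not called (adjusted p = 0.159). Without the irradiated array of line 1 it was called, at -0.61 (adjusted p = 0.0383), against 5.35% of all probe sets.

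The labelled sex and tissue were checked against marker genes. Accessory gland markers had a mean level of 9.44 or more on every array. The mean level of 3 yolk protein genes, female markers, was 3.11 or less on every array, although Yp3 alone averaged 4.79, above the 40th percentile of 3.35. Some tissue markers changed with dose. Of all probe sets 16.9% were called higher and 17.1% lower in control flies, and 10.7% and 10.6% in Dsup lines. Of 3 fat body markers 2, Lsp2 and fit, rose in control flies and 0 rose in Dsup lines. Both were already called higher in untreated Dsup lines than in untreated controls, by 1.85 and 2.35. In that comparison 10.7% of all probe sets were called. The mean level of the 3 fat body markers ranged over 3.41 to 5.55 in untreated controls and 6.57 to 7.07 in irradiated controls. It was 5.69 to 7.80 in untreated Dsup lines and 6.22 to 7.60 in irradiated ones. Of 5 measured testis markers 1 rose in control flies and 2 in Dsup lines. Without the irradiated array of line 1, the testis marker Mst84Da was no longer called in Dsup lines, at 0.27 (adjusted p = 0.0999). The 2 measured antennal markers fell in both genotypes, and their mean level was 5.33 to 5.91 in untreated and 2.76 to 3.27 in irradiated controls. Of the accessory gland markers 2 of 3 rose in control flies, with a mean level of 9.44 to 10.3 before and 10.7 to 10.8 after the dose. With the 3′ minus 5′ covariate, 0 of the fat body, testis and accessory gland markers were called in control flies. The 2 antennal markers were still called lower in that fit. The midgut marker Npc2f came to be called higher, at 1.23 (adjusted p = 0.0350), against 4.97% of all probe sets. The part of fat body, testis, antennal and accessory gland tissue in the changes of Irbp, Ku80 and Irbp18 was not tested.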

How the data were processed

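The authors deposited log2 probe set levels of 15 arrays, a scale read from the range of the values. How probes were summarised and normalized is not given in the sources used here. All 15 arrays were quantile-normalized together, because the deposited means differed between groups. A linear model with 4 group means was fitted with limma 3.58.1 in R 4.3.3 to 18769 probe sets, without 183 Affymetrix controls, followed by empirical Bayes moderation and two-sided tests with Benjamini-Hochberg adjustment over all of them. The code was tested on simulated data. The array annotation gave 1 symbol for 13647 probe sets, several for 402 and none for 4720. A gene with several probe sets was represented by the one of highest mean level.

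The number of arrays limits the precision. Control arrays are biological replicates per the labels, and Dsup arrays are single lines, so p-values reflect only how these samples vary. The many identical deposited values among irradiated controls may lower the pooled spread. The 3 genes and the gene lists were chosen with earlier results of these data known. Genes were named where they passed an adjusted p of 0.05 in a radiation comparison, up to 8 a list, together with Xrp1, p53, DNAlig4, PolQ, mre11, rad50, crc and the 5 nearest profiles. Alternatives were other scalings, a filter at the 40th percentile of level, a fit of only the groups compared, the 3′ minus 5′ covariate, the spike-in class, single arrays left out and a replicate block.

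The numbers pair the Dsup arrays because the labels name the same line, while control numbers are only numbers. In the pairing check, same-numbered deviations correlated at -0.0117, 0.110, -0.0965 and -0.176 for lines 1 to 4 and at -0.135, 0.251 and -0.162 for controls.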

Additional observations from a re-analysis of the deposited data

Results flagged for a closer look

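In untreated Dsup flies, the Irbp level of line 1 was below that of the other 3 lines, with a gap of 0.920 of the group's whole range. That range was not wide, since the SD was 0.22 there and 0.21 in untreated controls. After 1000 Gy line 1 was far above the other lines for Irbp, with a gap of 0.847 of the range, and for Irbp18, with a gap of 0.938. Each gap is above Dixon's critical value for 4 arrays. Chance puts about 1 in 20 groups above it, and 9 groups were tested. Irradiated Ku80 in line 1 had a gap of 0.735, under that value. The interaction test was also called, at -1.10 for Ku80 (adjusted p = 0.0409) and -0.92 for Irbp18 (adjusted p = 0.0320). Leaving out 1 of the 15 arrays at a time kept the call in 3 cases for Ku80 and in 4 for Irbp18. Neither was called with the 3′ minus 5′ covariate.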

How the results depend on the processing

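The rise of Irbp, Ku80 and Irbp18 in control flies was called under every alternative run. Values below are log2 changes. For the rise in Dsup lines, Irbp was not called after centring on ribosomal protein genes (0.69), with low probe sets left out (0.83), with only the groups compared (0.83), with the 3′ minus 5′ covariate (0.57), in the spike-in class of lines 2 to 4 (0.34), with the replicate block (0.83) or without line 1 (0.34). Ku80 was not called with that covariate (0.55) or in that class (0.47). Irbp18 was called on deposited values (0.93), after median centring (0.52), with spike-in class as a block (0.45) and with the replicate block (0.45). Its change in the class of line 1 was 0.95. The class of line 1 holds 1 untreated and 1 irradiated Dsup array, so the spread in that fit comes from other arrays, of both classes. The exact permutation p of Irbp18, which is not adjusted, was 0.0286, as in any gene whose irradiated lines all lie above its untreated lines. In untreated flies the deposited values gave calls of -0.83, -0.64 and -0.53. The small positive Ku80 difference turned negative there, after ribosomal centring (-0.017), with the covariate (-0.11) and in both classes (-0.037 and -0.011). In irradiated flies the differences in the class of line 1 were -0.32, -0.25 and -0.19. The exact permutation p, which is not adjusted, was 0.0571, 0.0571 and 0.0857 for the differences of -1.44, -1.06 and -0.78. The interaction of Irbp was called after ribosomal centring (-1.40), in the class of lines 2 to 4 (-1.73) and without line 1 (-1.77), and turned positive in the other class (0.18). That of Ku80 was lost with low probe sets left out (-1.10), with the covariate (-0.79), in the class of line 1 (-0.21) and with the replicate block (-1.23), and that of Irbp18 with low probe sets left out (-0.92), with the covariate (-0.75) and in either class (-0.53 and -0.91). The replicate block changed no other call of these genes. Leaving out 1 array at a time gave 0.45 to 1.0 for the Irbp rise in Dsup lines, lost without any 1 of the untreated lines or without irradiated control 1, -1.66 to -1.11 for the Irbp interaction, called only without irradiated line 1, -0.033 to 0.17 for untreated Ku80, -1.38 to -0.96 for the Ku80 interaction, -1.0 to -0.69 for irradiated Irbp18, lost without irradiated control 2, and -1.14 to -0.83 for the Irbp18 interaction. The Ku80 interaction was called only without untreated control 4, untreated line 1 or irradiated line 1, and the Irbp18 interaction only without untreated control 3, untreated line 2 or 3, or irradiated line 1. The cause of these losses was not tested. Leaving out line 1 in both treatments was chosen after seeing the data.

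Counts of called probe sets moved more. In control flies 6375 were called, 3172 of them higher, against 4052 with low probe sets left out, 1825 with the covariate and 3552 and 1829 in the classes. Of 9297 called on deposited values 7862 were higher. In Dsup lines 3993 were called, 2006 higher, against 14489 (14258 higher) as deposited, 1914 with the filter, 2302 with the covariate and 419 and 2551 in the classes, while ribosomal centring gave 3457, 717 higher, and median centring 3845, 2332 higher. In untreated flies 2010 were called, 1021 higher, against 16742 (50 higher) as deposited, 3186 (2631) after median centring, 1837 (1386) after ribosomal centring, 324 with the filter, 500 with only those groups and 22 and 326 in the classes. In irradiated flies 2246 were called, 1110 higher, against 11606 (291 higher) as deposited, 4307 (3327) after median centring, 477 with the filter, 3561 with only those groups and 23 and 311 in the classes, and 1057 to 1237 without 1 of the irradiated controls. For the interaction 1705 were called, 809 higher, against 4298 (3863 higher) as deposited, 1181 (365) after ribosomal centring, 136 with the filter, 888 with the covariate, 955 with the replicate block and 2 and 223 in the classes, and 863 to 965 without 1 of the irradiated controls.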
